A study of Mus musculus with 8 samples.

Results

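The integrated stress response lets a cell limit protein synthesis and rebuild its amino acid supply when it is short of amino acids, crowded with unfolded protein or low in haem. Kinases that sense these states phosphorylate the initiation factor eIF2, which lowers translation in general while the Atf4 message is translated more, and ATF4 protein then switches on genes for amino acid synthesis and transport, redox balance and, under lasting stress, cell death. Because much of the control over ATF4 lies in translation, the level of its mRNA and the level of its target mRNAs are separate readouts. The account here covers 10 genes of this response, Atf4 itself and 9 genes known as its partners or targets (Ddit3, Atf5, Asns, Chac1, Trib3, Psat1, Phgdh, Slc7a11 and Ddit4). They were taken by symbol from a gene expression table of 23997 genes.

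The libraries came from bone marrow of C57BL/6 mice with leukaemia. Marrow taken 4 days after an injection of 5-FU (5-fluorouracil) was grown with IL3, IL6 and SCF. It was then transduced with AML1-ETO plus Meis2 (AE+Meis2, 3 libraries), with AML1-ETO9a plus Meis2 (AE9a+Meis2, 3 libraries) or with AML1-ETO9a alone (AE9a, 2 libraries), and given 48 h later to lethally irradiated mice. AML1-ETO is the fusion protein of a common acute myeloid leukaemia, AML1-ETO9a is its shorter splice form, and Meis2 encodes a homeodomain transcription factor. Marrow RNA was taken once each mouse had succumbed, and the labels put median latency at 171 days in the AE+Meis2 group, 102 in AE9a+Meis2 and 138 in AE9a. All 3 groups therefore carry a form of AML1-ETO, and no healthy or untransduced marrow was analysed here. The RNA is that of whole marrow, including blood cells and stroma of the host, and the labels do not name the promoter that drives the transgenes. No label names an animal or a batch, so p-values measure the spread between libraries, part of which may be technical.

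Levels are FPKM, sequenced fragments corrected for the length of the transcript and the size of the library. They are not corrected for differences in library make-up. Summed FPKM ran from 581500 in AE9a+Meis2 replicate 2 to 1089000 in AE+Meis2 replicate 3. Libraries are compared here as deposited, with quantile and upper-quartile scaling as alternatives. Absolute depth is unknown. A rough relative depth was taken from the most common ratio of each library to AE9a+Meis2 replicate 2 among genes of at most 1 FPKM. It was 12.2% to 66.0% of that library, the deepest by this estimate. The ratio behind each estimate was shared by 3.61% to 12.0% of the genes compared. In AE9a+Meis2 replicate 3 and AE9a replicate 1, 84.1% and 72.1% of 1543 olfactory, vomeronasal, keratin-associated and defensin genes, which are not normally expressed in marrow, had values above 0, against 3.37% to 6.61% in the other 6 libraries. Meis2 stood at 13.1, 38.2 and 81.5 FPKM in AE+Meis2, at 621, 604 and 1277 in AE9a+Meis2, and at 6.99 and 13.2 in AE9a. Runx1t1, whose 3′ part is carried by AML1-ETO, stood at 21.6, 223 and 218 FPKM in AE+Meis2, at 18.0, 11.2 and 10.3 in AE9a+Meis2, and at 26.8 and 23.4 in AE9a. The library labelled AE+Meis2 replicate 1 thus stood near the AE9a libraries for both genes, against its label. The Y-linked gene Eif2s3y was high (158 and 176 FPKM) in AE+Meis2 replicates 1 and 2 and at 7.06 FPKM or less elsewhere, so the AE+Meis2 group mixes Y-high and Y-low libraries. All 12 leukocyte and myeloid markers were at 1 FPKM or more in all 8 libraries, and no marker of the erythroid, B and plasma, T and NK, megakaryocyte or stromal lists that was in the table was at 0 in any library.

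ATF4 binds DNA as a dimer with C/EBP proteins at a composite C/EBP-ATF element, whose core was searched as TGATGNAA on both strands (TTNCATCA on the opposite one) in RefSeq promoters of GRCm38.p6, from 250 bases before to 50 bases after each start. All 10 genes were matched, through 12 promoters, and 4 of them (Chac1, Slc7a11, Asns and Trib3) held the core. Among all genes of the table with a promoter, 667 of 16753 (3.98%) held it. The 10 genes are known targets or partners of ATF4, so their share is a description and no evidence of binding in marrow. The stretches that carry the cores are shown because these 4 genes include the member that varied most between libraries (Asns) and the 3 with the lowest levels. They are written 5′ to 3′ along the gene with the core in capitals.
Chac1 chr2:119350993-119351112 plus strand: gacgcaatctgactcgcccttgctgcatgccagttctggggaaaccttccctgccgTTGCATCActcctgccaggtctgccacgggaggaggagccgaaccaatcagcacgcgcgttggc
Slc7a11 chr3:50443614-50443733 minus strand: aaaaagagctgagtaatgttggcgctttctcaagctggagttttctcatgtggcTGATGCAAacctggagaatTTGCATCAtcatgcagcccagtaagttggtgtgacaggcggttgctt
Asns chr6:7693210-7693329 minus strand: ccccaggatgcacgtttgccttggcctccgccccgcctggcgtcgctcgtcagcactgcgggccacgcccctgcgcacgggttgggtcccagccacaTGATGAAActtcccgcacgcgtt
Trib3 chr2:152344028-152344057 minus strand: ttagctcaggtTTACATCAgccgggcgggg
In Slc7a11 a sense core begins 66 bases before the start and an antisense core 47 bases before it, and only 11 of the 16753 genes (0.0657%) held 2 or more cores. The Asns core, on the sense strand, begins 23 bases before the start. In Chac1 the antisense core lies farther out, 193 bases before the start, while in Trib3 it lies 15 bases past the RefSeq start. Bases just after this Trib3 start were not found in a GENCODE transcript of the gene, unlike those of the other promoters, so its position is less certain. No core was in these windows for Atf4, Atf5, Ddit3, Ddit4, Psat1 or Phgdh, which says only that these letters are not within these bases.

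The 10 genes covered a wide range of levels. By median FPKM over the 8 libraries, Atf4 was highest at 152, followed by Ddit4 at 64.1, Asns at 50.9, Psat1 at 50.6, Phgdh at 27.0, Ddit3 at 25.7, Atf5 at 8.22, Trib3 at 2.28, Chac1 at 1.10 and Slc7a11 at 0.476. Atf4 thus had a higher median than 98.1% of the genes of the table, and Slc7a11 than 48.3%. The spread between libraries did not follow the level alone. Between the highest and the lowest library, Atf4 differed 1.87-fold, Ddit3 2.07-fold and Atf5 2.89-fold, whereas Slc7a11 differed 41.9-fold, Chac1 42.1-fold and Asns 63.6-fold. The ranges of Slc7a11 and Chac1 rest on lowest values near 0, at 0.118 and 0.0765 FPKM. Asns and Psat1 had nearly equal medians, yet Psat1 differed only 3.12-fold between its extremes.

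**Figure D1:**
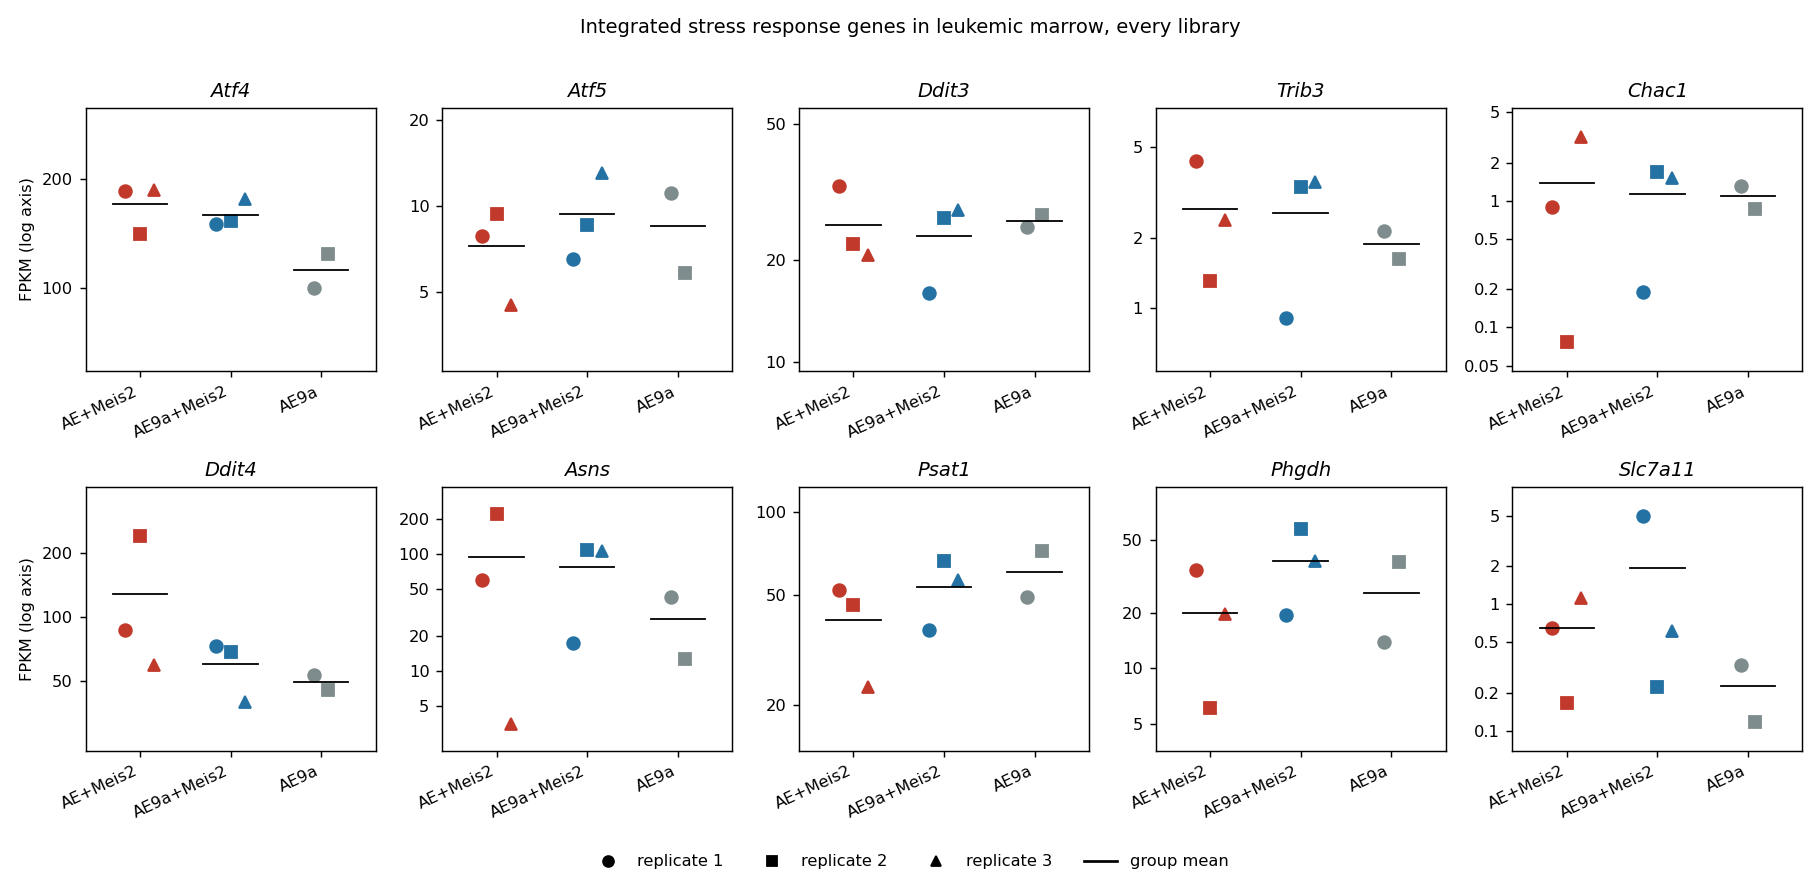
FPKM (log axis, scaled separately for each gene) of the 10 stress response genes in every library, with groups along the x axis, symbols for the replicate number and a line at each group mean. Both AE9a libraries lie below all 6 other libraries for Atf4 (99.6 and 125 FPKM), and AE+Meis2 holds both the highest and the lowest Asns value (222 and 3.49 FPKM).

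Atf4, the central transcription factor of the response (chromosome 15, 80255184 to 80257545, GRCm38), had 186, 141 and 186 FPKM in AE+Meis2, 150, 153 and 176 in AE9a+Meis2, and 99.6 and 125 in AE9a. Both AE9a libraries were lower than all 6 libraries labelled AE+Meis2 or AE9a+Meis2, which overlapped each other. The library labelled AE+Meis2 replicate 1 is among those 6 with 13.1 FPKM of Meis2, close to the 13.2 FPKM of AE9a replicate 2. Its Meis2 and Runx1t1 levels stand against its label, and the part of the Meis2 level in the Atf4 split was not tested. The group means were 171 ± 26.0 FPKM in AE+Meis2 (SD, n = 3), 160 ± 14.3 in AE9a+Meis2 (SD, n = 3) and 112 ± 17.6 in AE9a (SD, n = 2). On the log2(FPKM + 1) scale used for all tests, AE9a+Meis2 minus AE9a was 0.51 ± 0.21 (SE; 95% interval 0.02 to 1.00), with an adjusted p of 1.0 by limma with Benjamini-Hochberg adjustment over 12565 genes. AE+Meis2 minus AE9a was 0.60 ± 0.21 (0.12 to 1.09), with a limma adjusted p of 0.72. AE+Meis2 minus AE9a+Meis2 was 0.09 ± 0.19 (-0.35 to 0.53). The limma p-values before adjustment were 0.042 for AE9a+Meis2 against AE9a and 0.022 for AE+Meis2 against AE9a, so neither difference passed the threshold of 0.05 over all genes. These comparisons share the same 2 AE9a libraries and are not independent of each other. In bulk marrow, fewer cells that express a gene and less of its RNA per cell cannot be told apart.

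The Atf4 difference from AE9a kept its sign under all 19 alternative treatments of the data, and its size depended on them. AE9a replicate 1, which held the lowest Atf4 value, was also the library of lowest relative depth and one of the 2 with values in silent genes. Without it, the log2 difference was 0.35 for AE9a+Meis2 and 0.45 for AE+Meis2, each against the AE9a library that was left. With quantile scaling of the libraries it was 0.31 for AE9a+Meis2 and 0.24 for AE+Meis2.

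Atf5, a related factor that is also controlled in translation (chromosome 7, 44812256 to 44816658), had 7.86, 9.42 and 4.50 FPKM in AE+Meis2, 6.52, 8.57 and 13.0 in AE9a+Meis2, and 11.1 and 5.86 in AE9a. Its groups overlapped in all comparisons, with the highest library in AE9a+Meis2 and the lowest in AE+Meis2. Ddit3, which encodes the pro-apoptotic factor CHOP (chromosome 10, 127290793 to 127296291), had 32.9, 22.2 and 20.6 FPKM in AE+Meis2, 15.9, 26.6 and 27.9 in AE9a+Meis2, and 24.9 and 27.1 in AE9a. Its values also overlapped in all comparisons, and the AE9a pair lay inside the range of the other groups. The 95% intervals of the Ddit3 log2 differences were narrower than those of most of the 10 genes, since its SE was 0.28 to 0.31.

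Trib3 encodes a pseudokinase that ATF4 and CHOP induce and that restrains them in turn (chromosome 2, 152337425 to 152344060). It had 4.36, 1.31 and 2.40 FPKM in AE+Meis2, 0.897, 3.35 and 3.50 in AE9a+Meis2, and 2.16 and 1.62 in AE9a. The AE9a libraries again fell inside the range of the AE+Meis2 and of the AE9a+Meis2 group. Chac1, whose product breaks down glutathione (chromosome 2, 119351242 to 119354326), had 0.898, 0.0765 and 3.22 FPKM in AE+Meis2, 0.189, 1.68 and 1.51 in AE9a+Meis2, and 1.31 and 0.866 in AE9a. Its highest and its lowest library were both AE+Meis2, so its 42.1-fold range lay within a single group. At levels this low, the log2(FPKM + 1) scale understates ratios between libraries.

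Ddit4 encodes REDD1, an inhibitor of mTORC1 that many stresses induce (chromosome 10, 59949675 to 59951770). It had 86.9, 240.4 and 59.6 FPKM in AE+Meis2, 73.2, 68.5 and 40.2 in AE9a+Meis2, and 53.8 and 45.5 in AE9a. All 3 AE+Meis2 libraries lay above both AE9a libraries, with AE+Meis2 replicate 2 standing 2.77-fold above the next highest library. AE+Meis2 minus AE9a was 1.11 ± 0.56 on the log2 scale (95% interval -0.22 to 2.43) with a limma adjusted p of 0.92, and without AE+Meis2 replicate 2 it was 0.53 ± 0.35. AE+Meis2 minus AE9a+Meis2 was 0.87 ± 0.50 (-0.32 to 2.05), and 0.29 without that library. AE+Meis2 replicate 2 also had the highest summed level of 8 megakaryocyte markers, 385 FPKM, against 19.7 to 112 in the other 7 libraries. Itga2b alone gave 255 of the 385 FPKM, and 7 of the 8 markers were highest in this library. The part of this in the Ddit4 value was not tested.

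Asns encodes asparagine synthetase, the enzyme whose low level makes lymphoblastic leukaemia cells depend on outside asparagine (chromosome 6, 7675165 to 7693209). It had 59.5, 222 and 3.49 FPKM in AE+Meis2, 17.2, 109 and 106 in AE9a+Meis2, and 42.4 and 12.5 in AE9a. The AE+Meis2 group alone spanned the whole 63.6-fold range, and the other groups lay inside it. Group means were 95.0 ± 113.5 FPKM in AE+Meis2 (SD, n = 3), 77.1 ± 51.9 in AE9a+Meis2 (SD, n = 3) and 27.5 ± 21.1 in AE9a (SD, n = 2), so the SD of AE+Meis2 exceeded its mean. No direction could be assigned: AE+Meis2 minus AE9a was 0.70 ± 1.60 on the log2 scale (95% interval -3.07 to 4.46), 2.26 without AE+Meis2 replicate 3 and -0.56 without AE+Meis2 replicate 2. AE+Meis2 minus AE9a+Meis2 was -0.61 ± 1.43 (-3.97 to 2.76), and turned to 0.96 ± 1.00 without AE+Meis2 replicate 3. AE9a+Meis2 minus AE9a was 1.30 ± 1.60 (-2.46 to 5.06). It was 0.46 without AE9a replicate 2, 0.86 without AE9a+Meis2 replicate 2, 2.14 without AE9a replicate 1 and 2.16 without AE9a+Meis2 replicate 1.

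The enzymes of serine synthesis lie next to each other in the pathway, and the genes shared their highest libraries but not the lowest. Phgdh, which catalyses its first step (chromosome 3, 98313171 to 98339969), had 34.2, 6.05 and 19.7 FPKM in AE+Meis2, 19.5, 57.0 and 38.3 in AE9a+Meis2, and 13.9 and 37.7 in AE9a. Psat1, which catalyses the next step (chromosome 19, 15905123 to 15925059), had 52.2, 46.0 and 23.2 FPKM in AE+Meis2, 37.4, 66.4 and 56.7 in AE9a+Meis2, and 49.0 and 72.5 in AE9a. Both genes overlapped between groups in all 3 comparisons, and AE+Meis2 had the lowest library of each, replicate 2 for Phgdh and replicate 3 for Psat1. AE9a+Meis2 replicates 2 and 3, AE9a replicate 2 and AE+Meis2 replicate 1 were the highest libraries of both genes. Over the 8 libraries their Spearman rho was 0.71 and their Pearson r was 0.47. In Phgdh, AE+Meis2 minus AE9a+Meis2 was -1.06 ± 0.68 (95% interval -2.67 to 0.54; limma adjusted p 0.78), and -0.42 without AE+Meis2 replicate 2. In Psat1, AE+Meis2 minus AE9a was -0.63 ± 0.41 (-1.58 to 0.33; limma adjusted p 0.95), and -0.28 without AE+Meis2 replicate 3.

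Slc7a11, the subunit that carries cystine into the cell in exchange for glutamate (chromosome 3, 50364936 to 50499087), had 0.648, 0.166 and 1.12 FPKM in AE+Meis2, 4.95, 0.223 and 0.618 in AE9a+Meis2, and 0.333 and 0.118 in AE9a. A single library, AE9a+Meis2 replicate 1, stood far above the rest, and the gene passed the filter on low values (1 FPKM in 2 libraries) only through that library and AE+Meis2 replicate 3. AE9a+Meis2 minus AE9a was 0.90 ± 0.66 (95% interval -0.65 to 2.44), and 1.78 ± 1.25 with a pseudocount of 0.1 in place of 1. Without AE9a+Meis2 replicate 1 or AE+Meis2 replicate 3 the gene no longer passed the filter and gave no value. All 10 genes passed this filter.

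**Figure D2:**
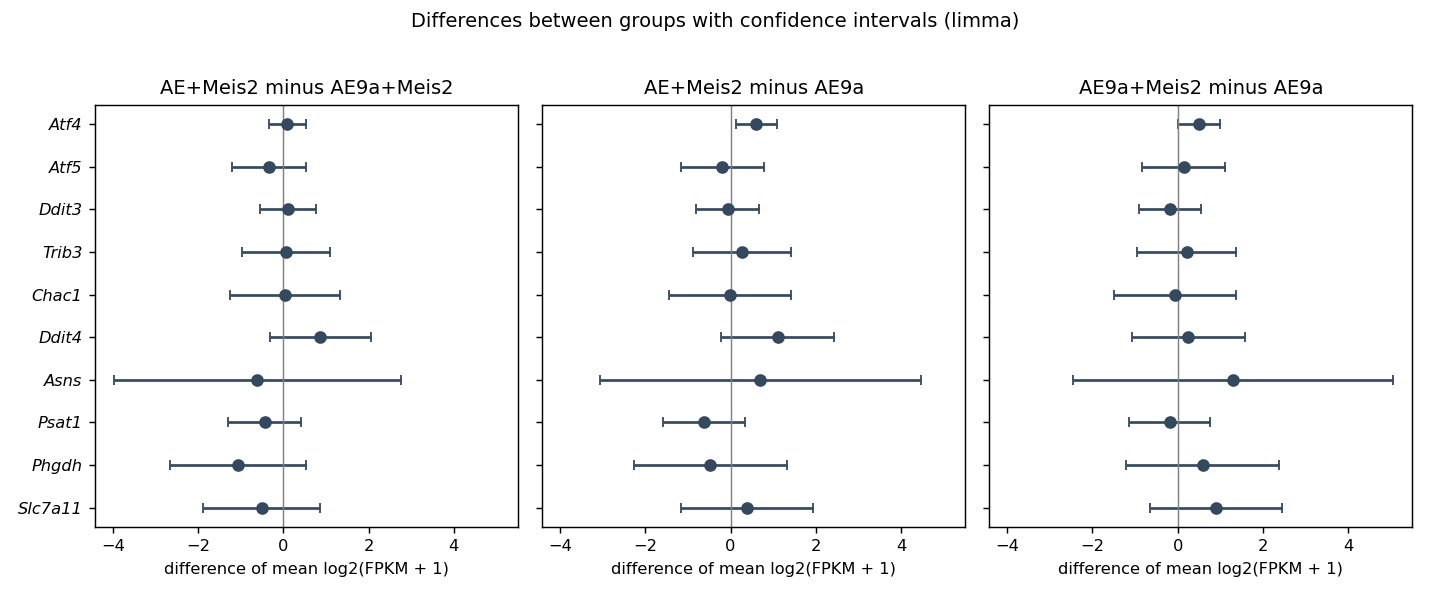
Log2 differences of FPKM + 1 between groups for the 10 genes, with points for the limma estimate and bars for its 95% interval, in 1 panel per comparison. The Atf4 intervals against AE9a lie just above 0 (0.02 to 1.00 and 0.12 to 1.09) before adjustment over all genes, and the Asns intervals span several log2 units in each panel.

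None of the 10 genes passed the limma test at an adjusted p of 0.05 in any comparison. At an unadjusted p under 0.05 the count was 1 of 10 for AE9a+Meis2 against AE9a (Atf4), 0 for AE+Meis2 against AE9a+Meis2 and 1 for AE+Meis2 against AE9a (Atf4). Few genes of the table passed either: 6 of 12565 (0.0478%) for AE9a+Meis2 against AE9a, 5 (0.0398%) for AE+Meis2 against AE9a+Meis2 and 4 (0.0318%) for AE+Meis2 against AE9a. A limma F test over the 3 groups at once called none of the 10 and 7 of all genes (0.0557%), and its smallest p among the 10 was that of Atf4, 0.051, with an adjusted p of 0.85.

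Groups that do not overlap were counted among the 10 genes and in the whole table. In AE9a+Meis2 against AE9a, 1 gene (Atf4) was higher without overlap and 0 were lower, where 13.1% and 10.7% of all genes tested were. Between AE+Meis2 and AE9a+Meis2, 0 were higher and 0 lower, where 7.0% and 6.49% of all genes were. Between AE+Meis2 and AE9a, 2 (Atf4 and Ddit4) were higher and 0 lower, where 9.96% and 8.66% of all genes were. With 10 genes, counts of 0 to 2 lie near what these shares of the table come to. The median log2 difference of the 10 genes was 0.23 for AE9a+Meis2 against AE9a, -0.15 for AE+Meis2 against AE9a+Meis2 and 0.13 for AE+Meis2 against AE9a, beside -0.0011, 0.04 and 0.06 for all genes tested. Positive differences numbered 7, 5 and 5 of 10 in the same order of comparisons, 8, 4 and 6 with quantile scaling of the libraries, and 7, 2 and 5 with upper-quartile scaling. The median for AE+Meis2 against AE9a was 0.01 with upper-quartile scaling.

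Several of the 10 genes varied widely between libraries of the same group. The within-group SD on the log2 scale was 2.11 for Asns, larger than for 98.5% of the genes tested and than for 98.9% of genes at a similar level. It was 0.99 for Phgdh, 0.82 for Slc7a11, 0.76 for Chac1 and 0.72 for Ddit4, each larger than for at least 80.9% of the genes tested. Trib3 had 0.60, Psat1 0.50 and Atf5 0.49, and the median over all genes tested was 0.38. Ddit3, at 0.35, and Atf4, at 0.19, were below that median, and only 13.6% of the genes tested varied less within groups than Atf4. Atf4 and Ddit3 were thus the steadiest of the 10 genes within groups, and Asns the least steady.

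**Figure D3:**
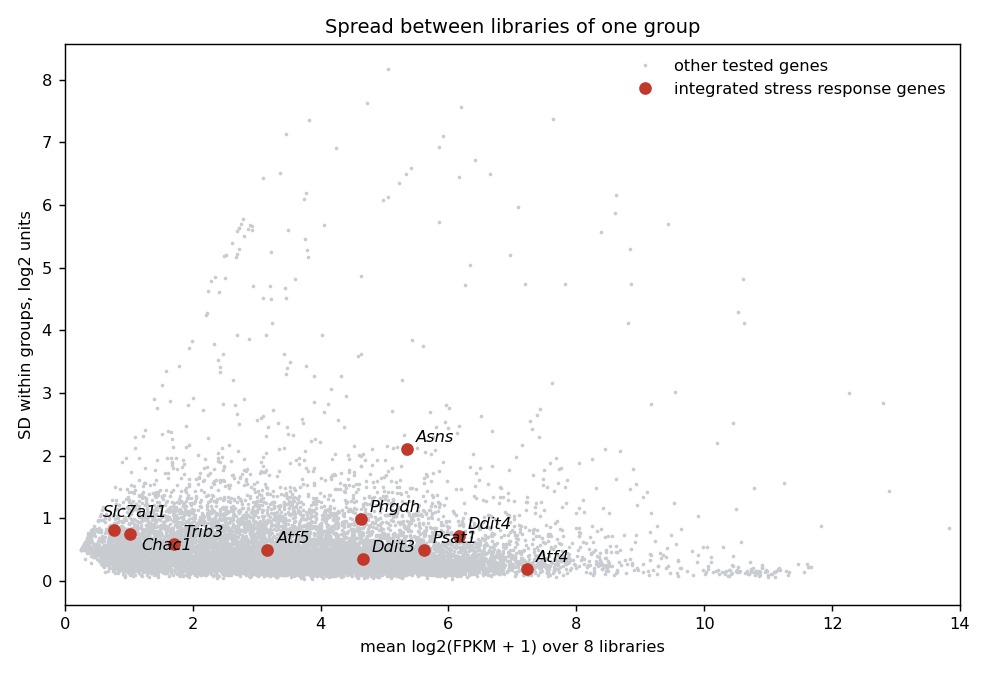
Pooled within-group SD (log2) against mean log2(FPKM + 1) for all genes tested, drawn as small points, with the 10 stress response genes labelled. Asns (2.11) lies above most genes of its level and Atf4 (0.19) near the lower edge.

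The 10 genes did not move as a single block across the 8 libraries. Of 45 gene pairs, 24 had a positive Pearson correlation of log2 levels, with a median r of 0.04. These are descriptions over 8 libraries that share groups, depth and marrow make-up, and carry no p. Ddit3 and Trib3, a factor and its known target, had r = 0.81 (Spearman rho 0.76), with AE+Meis2 replicate 1 highest and AE9a+Meis2 replicate 1 lowest for both genes. Atf5 and Asns had r = 0.82 (rho 0.74). Trib3 had r = 0.60 with both Chac1 and Phgdh, and Ddit3 had r = 0.63 with Psat1. Other pairs ran the opposite way, with r = -0.73 for Ddit3 and Slc7a11, -0.68 for Ddit4 and Phgdh and -0.62 for Chac1 and Ddit4. Atf4 itself had coefficients with the other 9 genes from r = -0.35 (Psat1) to 0.46 (Trib3), with 0.32 for Phgdh, 0.28 for both Chac1 and Slc7a11, 0.09 for Ddit3, 0.04 for Ddit4, -0.07 for Asns and -0.26 for Atf5. By rank, rho was 0.62 for Atf4 with Trib3, 0.60 with Slc7a11 and 0.55 with Chac1. After each group's mean was taken out, r was 0.81 for Atf4 with Phgdh and -0.88 with Ddit4, so some of these relations differ by the measure used.

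**Figure D4:**
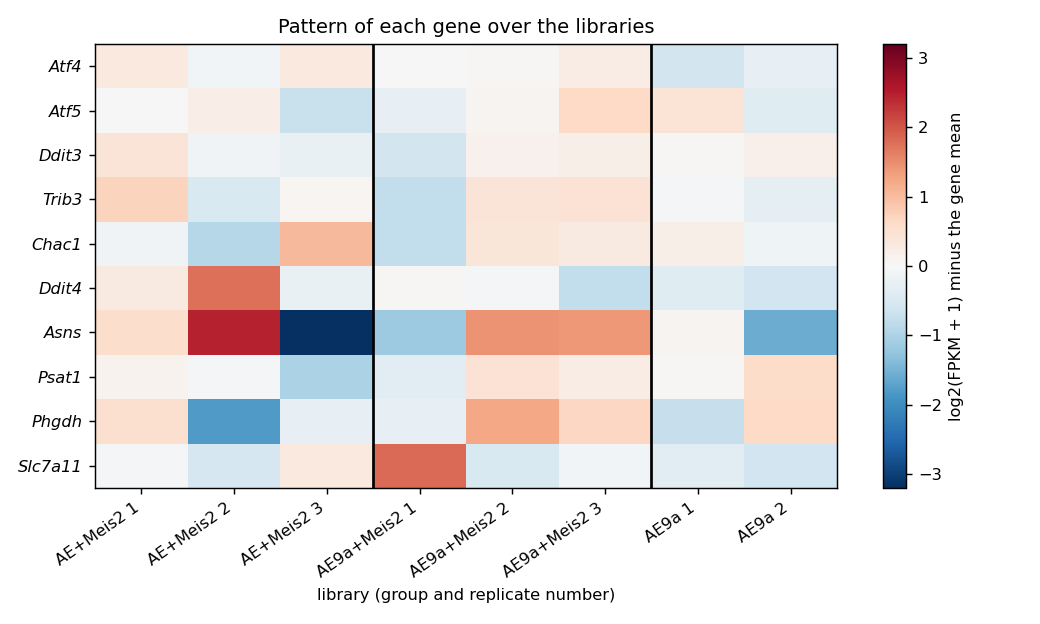
Log2(FPKM + 1) of each of the 10 genes minus its mean over the 8 libraries, as a colour scale with libraries in columns by group and genes in rows by role. Ddit4 and Asns are far above their means in AE+Meis2 replicate 2, where Chac1 and Phgdh are below theirs, and Asns is lowest in AE+Meis2 replicate 3.

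Genes with the most similar profile were sought among 8661 or 8662 others of at least 5 FPKM on average. The closest to Atf4 were H3f3b, a gene for histone H3.3 (r = 0.973, 305 to 596 FPKM), Dgat1 (r = 0.961) and Selo (r = 0.956). Closest to Asns were Ggact (r = 0.931), Nrip3 (r = 0.923, 0.592 to 126 FPKM) and Mta3 (r = 0.919). The closest to Trib3 was Nupr1, a stress-induced chromatin protein that belongs to the wider stress response list (r = 0.884, 6.28 to 15.9 FPKM), followed by Rbx1 and Arl4c (r = 0.868 each). With so many genes and 8 libraries, high coefficients arise for most profiles, so these names are descriptions.

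Atf4 levels ran alongside the summed levels of other stress genes. The sum of 17 endoplasmic reticulum chaperone and ER stress genes was 1850, 1260 and 2460 FPKM in AE+Meis2, 1720, 1720 and 1450 in AE9a+Meis2, and 882 and 1460 in AE9a, and its Spearman rho with Atf4 over the 8 libraries was 0.80. The sum of 18 early-response genes that handling and dissociation of tissue also induce, such as Fos, Jun and Egr1, was 1630, 311 and 4040 FPKM in AE+Meis2, 2570, 1600 and 2560 in AE9a+Meis2, and 326 and 655 in AE9a, with a rho of 0.76. AE9a replicate 1 was lowest for the chaperone sum, and both AE9a libraries were among the 3 lowest for the early-response sum. The leukocyte and myeloid sum was 2730, 774 and 6450 FPKM in AE+Meis2, 3520, 3680 and 1800 in AE9a+Meis2, and 1030 and 1670 in AE9a, with a rho of 0.74. The sum of 9 T and NK markers also had a rho of 0.74 with Atf4. It was 86.7, 62.9 and 126 FPKM in AE+Meis2, 15.1, 48.0 and 84.1 in AE9a+Meis2, and 31.8 and 58.8 in AE9a. Nkg7 was the largest of these markers in every library and gave 101 of the 126 FPKM in AE+Meis2 replicate 3. Without Nkg7 the sum was 37.8, 42.5 and 24.8 FPKM in AE+Meis2, 10.5, 18 and 60.7 in AE9a+Meis2, and 20.8 and 27.6 in AE9a. Only 1 of the 9 markers was highest in AE+Meis2 replicate 3, and 6 were highest in AE9a+Meis2 replicate 3. This rho therefore describes a sum led by Nkg7. No gene of the chaperone list or of the early-response list passed the limma test in any comparison. Of 17 chaperone genes, 17 had positive differences for AE9a+Meis2 against AE9a (median log2 0.46), 10 for AE+Meis2 against AE9a+Meis2 (0.06) and 16 for AE+Meis2 against AE9a (0.50). With quantile scaling of the libraries those counts were 17, 5 and 14. Of 16 early-response genes tested, 16, 5 and 15 were positive, with medians of 1.69, -0.68 and 1.04. The part of handling, chaperone load or cell make-up in the Atf4 levels was not tested.

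The Asns extremes fell in libraries that also stood out for summed cell type markers. AE+Meis2 replicate 2, highest for Asns at 222 FPKM, had the highest sum of 12 erythroid markers (1180 FPKM) and the lowest leukocyte and myeloid sum (774), while AE+Meis2 replicate 3, lowest for Asns at 3.49, had the lowest erythroid sum (63.2) and the highest myeloid sum (6450). The low erythroid sum was shared by the list, since 10 of its 12 markers were lowest in AE+Meis2 replicate 3. The high sum of AE+Meis2 replicate 2 was not: Rhag alone gave 650.3 of the 1180 FPKM, 6 of the 12 markers were highest there, and Alas2 was at its lowest of all libraries (9.42 FPKM). Without Rhag the erythroid sum was 532 FPKM in AE+Meis2 replicate 2, beside 520 in AE+Meis2 replicate 1 and 485 in AE9a replicate 2. In the other libraries the full erythroid sum was 587 FPKM in AE+Meis2 replicate 1, 217, 318 and 332 in AE9a+Meis2, and 279 and 599 in AE9a, where the library with 599 had only 12.5 FPKM of Asns. Over the 8 libraries the Spearman rho of Asns was 0.55 with the erythroid sum and -0.38 with the myeloid sum, and the part of marrow make-up in Asns was not tested.

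**Figure D5:**
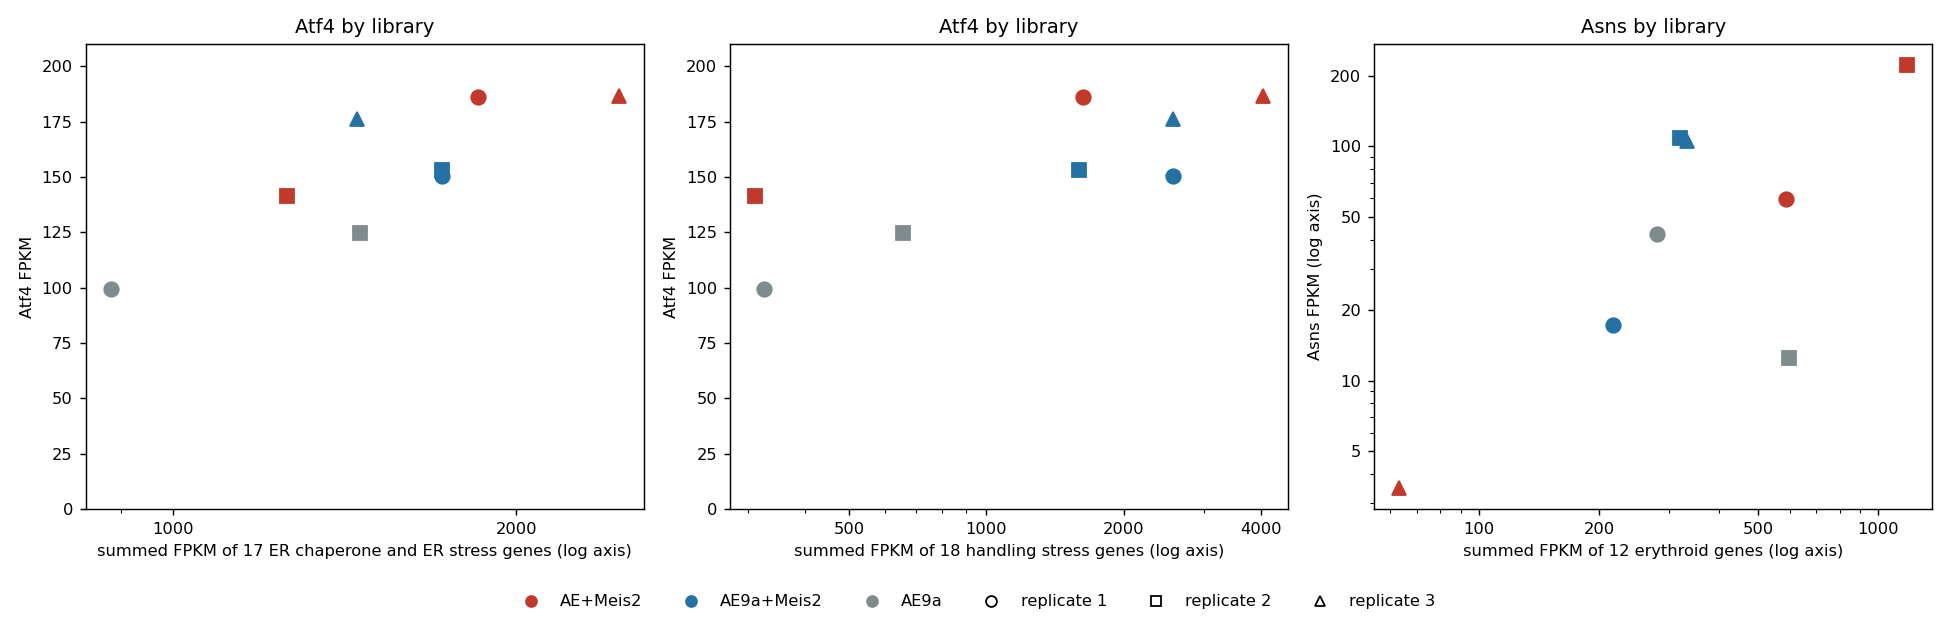
Atf4 FPKM against the summed FPKM of 17 ER chaperone and ER stress genes (left) and of 18 handling stress genes (middle), and Asns FPKM against the summed FPKM of 12 erythroid genes (right, both axes log), with 1 point per library, colour for the group and shape for the replicate. AE9a replicate 1 is lowest for Atf4 (99.6 FPKM) and for the chaperone sum (882 FPKM), and the erythroid sum spans 63.2 to 1180 FPKM.

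The rest of the pathway was read from 71 further genes, the eIF2 kinases, the eIF2, eIF2B and phosphatase subunits, other stress factors and targets, amino acid and one-carbon enzymes, amino acid transporters and cytosolic tRNA synthetases. Of these, 64 passed the filter and none passed the limma test in any comparison. At an unadjusted p under 0.05 there were 2 for AE9a+Meis2 against AE9a, 4 for AE+Meis2 against AE9a+Meis2 and 4 for AE+Meis2 against AE9a, or 3.12%, 6.25% and 6.25% of those tested, beside 3.06%, 7.15% and 5.98% of all genes. Positive differences numbered 42, 33 and 40 of 64, and 32, 25 and 28 of 64 with quantile scaling, so no direction of the pathway as a whole can be given.

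Eif2ak2, of the eIF2 kinase list, and Ppp1r15a, of the eIF2, eIF2B and phosphatase list, had small p-values without passing over all genes. Eif2ak2, which encodes the double-stranded RNA sensing eIF2 kinase PKR, had 32.6, 25.9 and 33.4 FPKM in AE+Meis2, 18.4, 20.9 and 22.6 in AE9a+Meis2, and 15.2 and 14.4 in AE9a, so its 3 groups did not overlap. AE+Meis2 minus AE9a was 0.99 ± 0.20 on the log2 scale (limma adjusted p 0.34). Ppp1r15a encodes GADD34, the stress-induced subunit that directs eIF2 dephosphorylation. It had 84.6, 37.1 and 34.4 FPKM in AE+Meis2, 60.8, 57.4 and 100 in AE9a+Meis2, and 11.9 and 29.0 in AE9a, where AE9a+Meis2 minus AE9a was 1.86 ± 0.52 and AE+Meis2 minus AE9a 1.31 ± 0.52. Both AE9a libraries were therefore lowest for PKR and for GADD34, as for Atf4, but these genes were named for their small p-values. Of all genes tested, 13.1% lay above both AE9a libraries in all AE9a+Meis2 libraries, and 9.96% in all AE+Meis2 libraries. Other genes of these lists went other ways. Eif2ak1 had 45.2 and 49.7 FPKM in AE9a, and 54.5, 37.7 and 42.1 in AE+Meis2. Of 11 eIF2, eIF2B and phosphatase genes, 6 had negative differences for AE9a+Meis2 against AE9a.

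Atf3, a stress-induced factor that joins ATF4 on many promoters, had AE9a+Meis2 libraries that did not overlap with either other group. It had 5.55, 4.75 and 8.87 FPKM in AE+Meis2, 33.1, 14.3 and 43.8 in AE9a+Meis2, and 3.92 and 3.44 in AE9a. AE9a+Meis2 minus AE9a was 2.61 ± 0.47 (limma adjusted p 0.48), AE+Meis2 minus AE9a+Meis2 was -1.99 ± 0.42 (0.32) and AE+Meis2 minus AE9a was 0.62 ± 0.47 (0.95). Gadd45a, a growth arrest gene, had 39.5, 35.4 and 70.3 FPKM in AE+Meis2, 16.5, 17.3 and 27.6 in AE9a+Meis2, and 5.46 and 25.6 in AE9a, with all 3 AE+Meis2 libraries above the other 5. Atf3 and Gadd45a were named for their small p-values. Over all genes tested, AE9a+Meis2 lay without overlap above AE9a in 13.1% and above AE+Meis2 in 6.49%. For AE+Meis2 the share was 7.0% above AE9a+Meis2 and 9.96% above AE9a, each comparison counted by itself. In amino acid metabolism, Cth, which makes cysteine, stayed at 0.133, 0.131 and 0.194 FPKM in AE+Meis2, against 0.103, 1.89 and 2.53 in AE9a+Meis2, and was listed at 0 and 0.135 in AE9a. The eIF2 subunit gene Eif2s3y is Y-linked and had 158, 176 and 7.06 FPKM in AE+Meis2, at most 0.408 in AE9a+Meis2 and at most 0.574 in AE9a. Its difference passed the limma test in fits without AE+Meis2 replicate 3, at 7.10 ± 0.22 against AE9a+Meis2 (adjusted p 0.00011) and 6.77 ± 0.24 against AE9a (adjusted p 0.00031). Those fits keep only the Y-high libraries of AE+Meis2, so the pass came from leaving out its Y-low library and is no result about the stress response. Cebpb, a dimer partner of ATF4, passed for AE+Meis2 against AE9a only where both Y-high libraries were left out, at 2.52 ± 0.35 with a limma adjusted p of 0.045, which leaves 1 AE+Meis2 library whose spread is assumed from the other groups.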

How the data were processed

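Total marrow RNA was made into libraries with the Illumina TruSeq RNA kit version 2, per the labels' protocols. TopHat, Cufflinks and Cuffdiff with mm10 are named in the submitters' processing notes, with no versions. The deposited values are FPKM per gene and library, as the authors' table gives them, so a count test could not be used and depth is unknown. Groups and replicate numbers come from the sample titles. Values were set to log2(FPKM + 1), and genes at 1 FPKM or more in at least 2 libraries (12565 of 23997) were fitted with limma 3.58.1 in R 4.3.3, with a mean term for each of the 3 groups over all 8 libraries and an intensity trend. P-values were adjusted by Benjamini-Hochberg over all genes tested, with a threshold of 0.05; the script was tested on simulated data. Figures and summaries used Python 3.11.15, pandas 2.3.3, NumPy 2.4.6, SciPy 1.17.1 and matplotlib 3.10.9. The genes and lists were chosen with earlier results of these data known. All 10 genes are named, together with the 3 closest profiles to Atf4, Asns and Trib3 and, of each wider list, genes among the 3 smallest p-values in a comparison. Promoter sequences and gene coordinates are from RefSeq (GRCm38.p6). GENCODE transcripts of the same build served only to check the direction of the promoters. Bases just after the start lay in a transcript of the gene for every promoter of the 10 genes except that of Trib3. Counting by strand is not stated, so overlapping genes may share fragments.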

Additional observations from a re-analysis of the deposited data

How the results depend on the processing

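The limits are 2 to 3 libraries a group, unknown depth, AE+Meis2 replicate 1 against its label, and log2 intervals for Asns too wide to give a direction. Under 19 alternatives, the 30 differences of the 10 genes gave 553 values, none past the threshold (smallest limma adjusted p 0.15), 512 with the same sign and 41 with the opposite sign, spread over 17 differences; where a filter or a left-out library took Slc7a11, Trib3 or Chac1 below the minimum, no value could be had. The causes were not tested unless stated. Upper-quartile scaling moved the median of all genes for AE+Meis2 against AE9a to -0.11, against 0.06 without it. For AE9a+Meis2 against AE9a, the sign turned for Chac1 under quantile scaling (0.02) and for Phgdh without the 2 libraries that had silent-gene values (-0.17). Between AE+Meis2 and AE9a+Meis2 it turned for Atf4 under quantile (-0.07) and upper-quartile scaling (-0.02), Trib3 under upper-quartile scaling (-0.02), Chac1 with a pseudocount of 0.1 (-0.17) and upper-quartile scaling (-0.04), and Ddit3 without both Y-high libraries (-0.14). Between AE+Meis2 and AE9a it turned for Atf5 (0.22) and Chac1 (0.14) without the silent-gene libraries, Chac1 under quantile scaling (0.19), and Chac1 (1.02) and Asns (-2.43) without the Y-high libraries. Leaving out 1 library at a time gave ranges across 0. For AE9a+Meis2 against AE9a these were Atf5 -0.28 to 0.55, Ddit3 -0.32 to 0.07, Trib3 -0.0031 to 0.62, Chac1 -0.27 to 0.32, Psat1 -0.47 to 0.09 and Phgdh -0.10 to 1.28. In AE+Meis2 against AE9a+Meis2 they were Ddit3 -0.14 to 0.25, Trib3 -0.35 to 0.35, Chac1 -0.48 to 0.50 and Asns -1.86 to 0.96. In AE+Meis2 against AE9a they were Atf5 -0.61 to 0.22, Ddit3 -0.27 to 0.06, Trib3 -0.04 to 0.57, Chac1 -0.54 to 0.45, Asns -0.56 to 2.26 and Phgdh -1.17 to 0.22. Genes called by limma, 6 for AE9a+Meis2 against AE9a, became 2 to 9 with 1 library left out (2 without AE9a replicate 1), 3 without the silent-gene libraries and 0 without small RNAs and genes at 0 across 1 group. The 5 of AE+Meis2 against AE9a+Meis2 became 6 to 23 (23 without AE+Meis2 replicate 3, 9 without AE9a+Meis2 replicate 1, and 8 without AE+Meis2 replicate 1 or 2), 12 under upper-quartile scaling, 13 without the Y-high libraries and 0 without small RNAs and genes at 0 across 1 group. The 4 of AE+Meis2 against AE9a became 1 to 10 (10 without AE+Meis2 replicate 3, 1 without AE+Meis2 replicate 1 or AE9a replicate 1, 2 without AE9a+Meis2 replicate 2), 1 with no filter, 2 with only the libraries of both groups, 228 without the Y-high libraries and 0 without small RNAs and genes at 0 across 1 group. Among the 71 wider genes, none called became 0 to 1 in both AE+Meis2 comparisons with 1 library left out, and 1 for AE+Meis2 against AE9a without the Y-high libraries.

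Whether the replicate numbers pair the libraries could not be settled with 2 or 3 libraries a group. Deviations from the group means correlated at -0.03 to 0.13 between same-numbered libraries and at -0.1 to 0.08 between differently numbered ones. With the replicate number as a block, 2 genes were called for AE9a+Meis2 against AE9a and 0 for AE+Meis2 against AE9a, and none of the 10 stress response genes was called.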
